A study of Apis cerana with 76 samples.

Results

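This report describes the miRNAs named from miR-3715 to miR-3799 and from miR-6000 to miR-6067 in the Asian honey bee Apis cerana. Members were all entries of the authors' count sheets in these ranges of name numbers, except 9 named entries that the rule leaves out. They came to 58 of the 216 distinct names, with 19 of 146 entries in the sheet of developmental stages and 58 of 171 entries in the sheet of organs. The rule goes by name and sets no threshold on a measured value, but members were chosen with earlier results of these data known. The entries left out are miR-3718a-3p, miR-3720-5p, miR-3759-3p, miR-3791-3p, miR-6000-5p, miR-6001-3p, miR-6001-5p, miR-6040-5p and miR-6045-5p. In the organ sheet 3 sequences stood on more than 1 line, so the 58 entries held 55 sequences, and 18 names occurred in both sheets.

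MicroRNAs are short RNAs cut from the arms of a hairpin precursor, the 5p arm and the 3p arm. They guide Argonaute proteins to messenger RNAs, mainly by pairing of the seed near the 5′ end, and lower the translation or the stability of those messages. Names in these ranges were given mostly to miRNAs first described in honey bees, and for most of them no target is established, so the results below are ordered by where each miRNA was abundant rather than by function.

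The 76 small RNA libraries came from wild-type bees, as 54 stage libraries in 18 groups of 3 and 22 organ libraries in 11 groups of 2. The stage groups covered egg (E), 5 larval groups coded L1 to L5 and 4 pupal groups coded W, R, DR and DRB. Workers as adults came as YA and OA, and drones as adults as D. Queens were sampled as larvae (QL), as pupae (QW, QR, QDR) and as adults (QA). The organ groups were brain, ventriculus (the midgut) and rectum of drones and of workers, drone mucus gland (a male accessory gland), drone testis, worker venom gland, worker ovary and queen ovary. Age, the meaning of the stage codes and the caste of larvae and pupae without a Q code are not in the labels. Each count sheet had a single pooled column for a group, made by the authors, so each column was 1 unit and no error within a group was available.

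The column totals ran from 72873 counts (QA) to 19772824 (DRB) in stages and from 184457 (worker rectum) to 8476499 (drone mucus gland) in organs. A floor of 3 counts corresponded to 37.8 counts-per-million units (CPM) in QA, 5.86 in E and 4.15 to 4.49 in QL, QW and QR, and to at most 1.29 in the other stage columns. In organs the floor was highest in worker rectum, at 11.0 CPM. Of 11 organ marker names, 9 were matched in the organ sheet. The neural miR-2796-3p stood at 39510 and 47580 CPM in the brain columns and at most at 836 CPM elsewhere. Other neural names were less specific. miR-7-5p was highest in worker brain (10780 CPM) and drone brain (4659 CPM). miR-932-5p stood at 462 and 174 CPM in drone and worker brain but at 207 CPM in worker ovary. miR-9a-5p went the other way, at 1204 and 921.5 CPM in drone and worker brain and 16150 CPM in worker rectum. Of the gut names, miR-31a-5p was highest in drone rectum (195100 CPM) and miR-275-3p in testis (34040 CPM). miR-989-3p, known from insect ovaries, was highest in worker ovary (20860 CPM), followed by queen ovary (8695 CPM). The muscle miRNA miR-133-3p was highest in testis (11770 CPM), although miR-1-3p, also a muscle miRNA, was lowest there (5471 CPM). The part of other cell types in the testis values below was not tested.

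The sequences below are those of the members that led the summed level or stood out in a stage or an organ, as the authors' sheets give them. They are written 5′ to 3′ with the seed, bases 2 to 8, in capitals.
miR-3785-3p: uACCCUGUaacguccugagacu
miR-3715-5p: uCGGUAAGcagaguauaagaccu
miR-3786-3p: uCUGUAUGgcucaggacgauac
miR-3786-5p, stage sheet: cUUGUCCUgguucauguagg
miR-3718c-5p: uAUUGGGUcaggauagggcag
miR-3784: uCGCGGAAaauaauuucuauuu
miR-3719-3p: uACGGAUUgcgugacuuuucg
miR-3783-3p: uACUUUCAauuguuugaugagg
miR-6039-5p: aAUCGAACgcgugaguuuacg
miR-6057-5p, stage sheet: uUUGUGACuguaacaacaaacg
miR-6038-5p: uAUGUUUCugucuuauuucauu
miR-6038-3p: uGAAAUAUgacauaaacuuaag

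No seed was shared among these sequences. In the stage sheet 1 of the 19 member sequences shared its seed with a different sequence of the sheet, against 41 of the 127 other entries. In the organ sheet this held for 2 of 55 member sequences and for 22 of 110 others. The shared seeds belonged to miR-3785-3p, whose first 9 bases are those of miR-10a-5p, and to miR-6041, whose first 8 bases are those of miR-283-5p. These pairs are shown because a seed is the part of a miRNA that selects its targets.
miR-3785-3p: uACCCUGUaacguccugagacu
miR-10a-5p: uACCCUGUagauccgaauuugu
miR-6041: aAAUAUCAucgagaucgaagga
miR-283-5p, organ sheet: aAAUAUCAgcugguaauucugg

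The partners were the more abundant of each pair. miR-10a-5p, a conserved miRNA of the Hox cluster, had a mean of 17870 CPM over the stage columns, and miR-3785-3p had 3283 CPM. In organs miR-283-5p had a mean of 16850 CPM, whereas miR-6041 had 13 counts in all. Other sequence features of the members lay near those of the remaining entries. Their median length was 22 bases in both sheets, as for the others. The first base was U in 13 of 19 stage members (68.4%) and in 69 of 127 others (54.3%). In organs it was U in 25 of 55 members (45.5%) and in 63 of 110 others (57.3%).

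Of the 18 names in both sheets, 11 had the same sequence in each. Another 4 names, miR-3770-5p, miR-6000-3p, miR-6037-3p and miR-6048-3p, differed in length at the 3′ end. miR-6057-5p differed by C21U, counted from 1 at the 5′ end with the stage base first. The organ sheet held the 3p sequence under the name miR-3786-5p, and it held a different sequence under miR-6012-3p. That last pair is shown because a reader who joins the sheets by name would join different RNAs.
miR-6012-3p, stage sheet: uUCGGCGAugagaucagccugu
miR-6012-3p, organ sheet: aGGCUGAUauugucgggcggggu

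Levels are therefore given within each sheet, as CPM scaled by the trimmed mean of M-values (TMM), and are not compared between sheets. Summed shares are plain percentages of a column's miRNA counts. They do not include the entries that the rule leaves out, some of which were abundant. Of these, miR-6001-3p had a mean of 7450 CPM in larvae and miR-3759-3p one of 16710 CPM in gut. Where lines of the organ sheet had the same sequence, the line with the larger total alone entered the share. This was miR-3786-3p, not miR-3786-5p, and miR-6000-3p, not miR-6000b-3p, so the counts on the other line are missing from the share. In stages the members held 0.512% ± 0.194 (SD over 18 columns) of the counts. The lowest share was 0.296% in L3 and the highest was 0.979% in W. The 4 pupal columns held 0.979, 0.743, 0.571 and 0.81%. The 5 larval columns held 0.353, 0.301, 0.296, 0.338 and 0.35%, so these classes did not overlap. On library totals, the scale of these shares, the median log2 change from larvae to pupae was 0.93 over the 19 members. Over all entries it was 0.298, with 37 entries called higher and 18 lower, so higher levels in pupae were not particular to the members. Queen pupae held 0.543% (QW), 0.532% (QR) and 0.698% (QDR), and the queen larval column held 0.423%. Adult workers held 0.608% (YA) and 0.463% (OA), and adult drones held 0.354%. The exact 95% binomial interval was widest for QA, from 0.315 to 0.403% around 0.357%, and such intervals cover counting error only.

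A single member, miR-3785-3p, was the most abundant of the set in every stage column. It took from 35.1 to 84.6% of the members' counts. Without it the mean share was 0.192%. Its level ran from 836 CPM in OA to 6505 CPM in DRB with a median of 3406 CPM, and it ranked 22nd of the 146 entries by mean level. miR-3715-5p (mean 679 CPM) and miR-3786-3p (mean 595 CPM) followed at ranks 46 and 50. For comparison, the entry with the highest share of all, miR-184-3p, held 31.7% of the stage counts on average.

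In organs the members held 1.05% ± 1.52 (SD over 11 columns) of the counts, and the spread came mainly from testis. Testis stood at 5.52% and every other column at 1.13% or less. Both brain columns followed, at 1.10% (drone) and 1.13% (worker). With every line counted, testis stood at 5.57% and the brains at 1.37% (drone) and 1.53% (worker), still the highest 3 columns. Queen ovary held 0.877%, mucus gland 0.648%, worker ovary 0.612% and venom gland 0.501%. The gut columns were lowest, with 0.214 and 0.234% in drone and worker ventriculus and 0.245 and 0.414% in drone and worker rectum. The leading member was miR-3785-3p in 9 of the 11 columns, miR-3715-5p in testis (52.8% of the members' counts) and miR-3786-3p in mucus gland (43.6%). With both of its lines summed, the sequence of miR-3786-3p also led in worker brain, at 9105 CPM against 7913 CPM for miR-3785-3p. Without miR-3715-5p testis still held 2.61%, the highest value of the 11 columns.

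**Figure D1:**
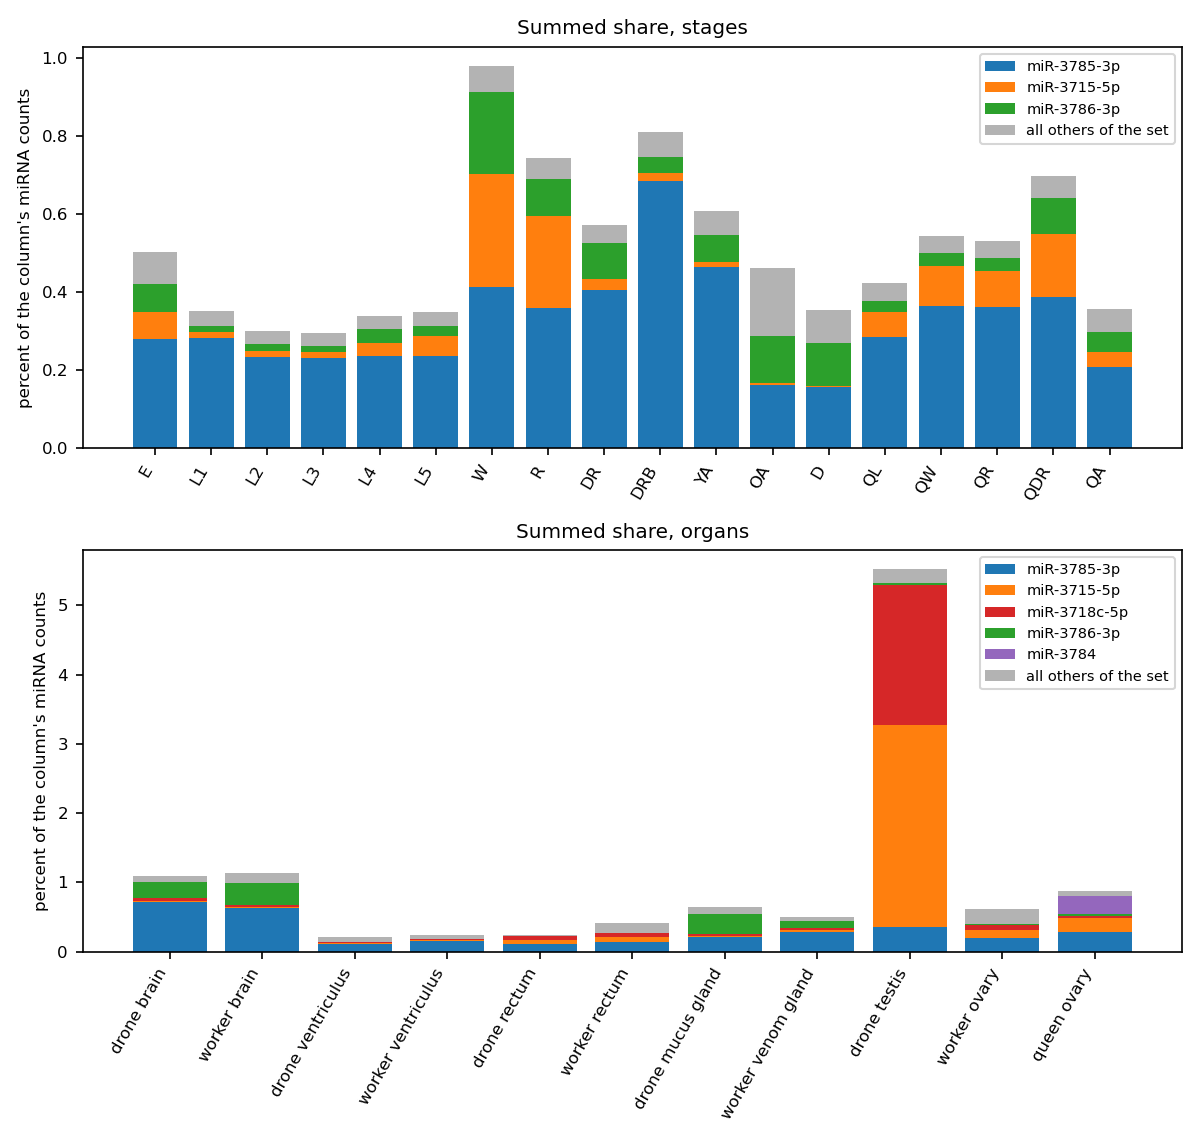
Summed share of the members in each stage column (top) and organ column (bottom), in percent of the column's miRNA counts, stacked by the leading members, with all others in grey. For sequences listed more than once, the line with the larger total alone is drawn. Each bar is 1 pooled column without replicate error, and the panels have different y axes. The 4 pupal columns (0.571 to 0.979%) stand above the 5 larval columns (0.296 to 0.353%), and testis reaches 5.52%.

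The next question was how the members changed over development. All 19 stage members passed the filter on low counts. Across the 8 stage classes, 11 of the 19 differed in the quasi-likelihood test of edgeR at an adjusted p of at most 0.05, beside 66.2% of all 145 entries tested. The smallest adjusted p among the members was 0.000245, for miR-3719-3p. The most abundant member was not among the 11: miR-3785-3p had an adjusted p of 0.371 and miR-6037-3p, present at 75.5 to 344 CPM, had 0.156. miR-6005-5p, named after its values were seen, also kept a narrow range, from 18.0 to 59.1 CPM (adjusted p = 0.332). These tests used single columns as units, so the p-values measure the spread between pooled columns, not between bees. The columns of a class were different groups, such as L1 to L5, so changes within a class served as the error.

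**Figure D2:**
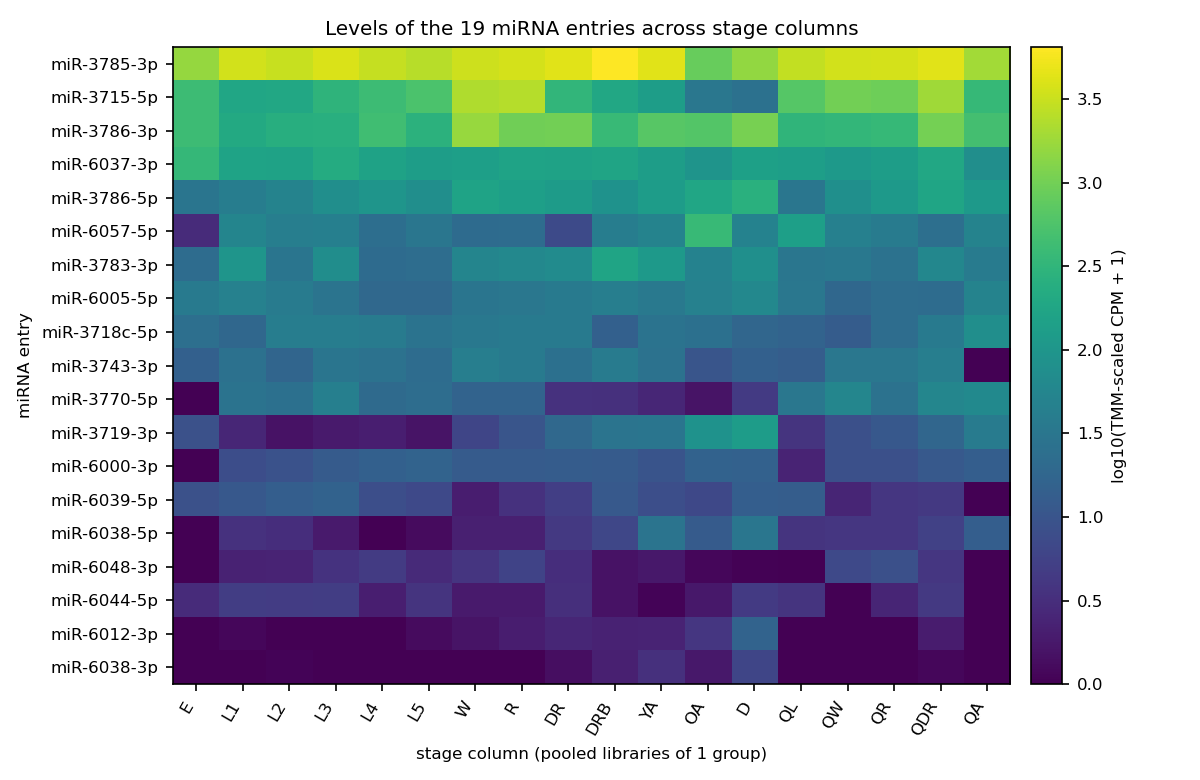
Levels of the 19 members (rows, by falling mean) in the 18 stage columns, as log10 of TMM-scaled CPM plus 1, with brighter colours for higher levels. Each cell is 1 pooled column. miR-3785-3p is bright throughout (836 to 6505 CPM), whereas miR-3719-3p goes from 0.533 CPM in L2 to 128 CPM in adult drones.

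Between larvae and pupae, 5 of the 19 members passed the test, 4 of them higher and 1 lower in pupae. Over all entries tested, 40% passed, 17.9% higher and 22.1% lower. The median log2 change was 0.46 over the 19 members and -0.15 over all 145 entries. Scaling by library totals moved the median of all entries by 0.45 on the log2 scale, and 9 members were then called, all higher. Over all entries that scaling gave 37 calls higher and 18 lower, where TMM gave 26 and 32. Leaving out L2 or L3 left 3 member calls, all higher, and 45 and 49 calls over all entries, against 58 in the full fit.

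miR-3719-3p showed the clearest rise. Its larval columns stood at 1.57, 0.533, 0.857, 1.09 and 0.606 CPM (L1 to L5), and its pupal columns at 5.36, 9.09, 18.1 and 28.3 CPM (W, R, DR and DRB). Every pupal column lay above every larval one. The log2 change was 3.97 (SE 0.585, adjusted p = 0.000443, edgeR). It was also high in adults, at 29.8 and 85.6 CPM in workers (YA and OA) and 128 CPM in drones, the highest column, 15.1 times its median of 8.45 CPM. Of the 19 members, 11 reached 50 CPM in some column, as did 73.3% of all entries. It was the 1 member of these 11 whose highest column was at least 10 times its median column, whereas 27.1% of all entries reaching 50 CPM met that mark.

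miR-3786-3p stood at 209, 248, 252, 437 and 285 CPM in larvae and at 1660 (W), 962 (R), 1004 (DR) and 376 (DRB) CPM in pupae. The DRB column fell within the larval range and the other 3 pupal columns lay above it. The log2 change was 1.81 (SE 0.477, adjusted p = 0.0097, edgeR). Its other arm, miR-3786-5p, had means of 67.4 ± 22.1 CPM (SD, n = 5 columns) in larvae and 127 ± 31.2 CPM (n = 4) in pupae, and its change of 0.92 (SE 0.365) missed the threshold (adjusted p = 0.0596, edgeR).

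miR-3715-5p was high in the pupal columns W and R. Larvae stood at 183, 191, 299, 413 and 546 CPM from L1 to L5. Pupae stood at 2289 (W), 2411 (R), 322 (DR) and 191 (DRB) CPM, so that W and R lay above all larvae and DR and DRB inside their range. The change was 2.0 on the log2 scale (SE 0.718, adjusted p = 0.0401, edgeR). The call was lost without L2 (1.86, adjusted p = 0.0864), L3 (1.97, 0.0766), L4 (2.10, 0.0541), W (1.58, 0.112) or R (1.52, 0.126). Among the queen columns it stood at 651 (QL), 990 (QW), 941 (QR), 1850 (QDR) and 352 (QA) CPM, so the column of code QDR was high where DR was not.

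A pair of calls concerned members below 50 CPM, which are named here after their values were seen. miR-6012-3p was at 0 CPM in 3 larval columns and at most 0.303 CPM in the others, against 0.57 to 1.56 CPM in pupae (log2 change 3.28, SE 0.799, adjusted p = 0.00575, edgeR). The floor of 3 counts was 0.144 to 0.342 CPM in the pupal columns but 0.277 to 1.29 CPM in the larval ones, so levels like the lower pupal ones could not be told from 0 in L3 and L4. It did not pass the filter when only the 9 columns compared were fitted. miR-3770-5p stood at 19.7 to 43.3 CPM in larvae, 15.3 (W), 15.6 (R), 2.45 (DR) and 2.35 (DRB) CPM in pupae, which did not overlap. Its log2 change was -1.62 (SE 0.607, adjusted p = 0.0479, edgeR), and the call was lost under either other scaling, when only the 9 columns compared were fitted, and without any 1 of the larval columns, DR or DRB (adjusted p from 0.0516 without L4 to 0.228 without DR). With miR-3719-3p these were the 3 members of 19 whose larval and pupal columns did not overlap, beside 30.3% of all entries.

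**Figure D3:**
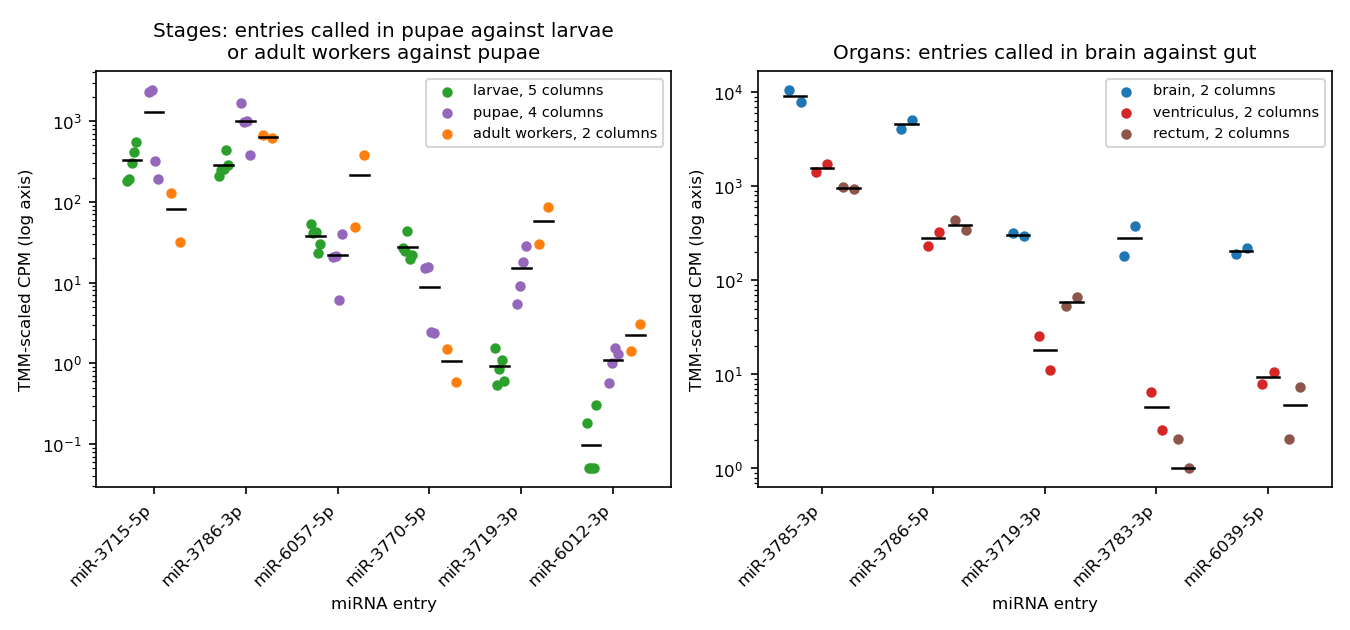
TMM-scaled CPM on log axes for the members called between pupae and larvae or between adult workers and pupae (left) and between brain and gut (right). Each point is 1 pooled column and each black line is a class mean. Points at 0 are drawn at the lower edge, at 0.05 CPM (left) and 1 CPM (right). The larval and pupal points of miR-3719-3p do not overlap (at most 1.57 and at least 5.36 CPM), and the brain points of all 5 members on the right lie above all gut points.

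From pupae to adult workers, 2 of the 19 members passed, 1 higher and 1 lower, beside 7.59% of all entries (4.83% higher and 2.76% lower). miR-3715-5p fell further, from the pupal values above to 130 CPM (YA) and 31.8 CPM (OA), both below every pupal column. Its log2 change was -4.01 (SE 1.142, adjusted p = 0.0454, edgeR). miR-6057-5p stood at 20.6, 21.6, 6.16 and 40.5 CPM in pupae (W, R, DR and DRB), 49.2 CPM in YA and 377 CPM in OA. Both adult columns lay above the pupae, and OA stood apart at 9.22 times the median of 40.8 CPM over the 18 columns. The log2 change was 3.26 (SE 0.72, adjusted p = 0.0228, edgeR), and without OA it was 1.14 (adjusted p = 0.515). It also missed the threshold without R (adjusted p = 0.076) or DR (0.0634), and miR-3715-5p missed it without W (0.0804), R (0.104) or OA (0.391) and with DESeq2 size factors, where its change was -3.71. The count of calls depended on the columns fitted. It was 0 without R, without OA or when only the 6 columns compared were fitted, and 0 entries of the whole sheet were called in those fits. It was 1 without W (6 of all entries), 6 without YA (39), 7 without DRB (31) and 5 with DESeq2 (29), so the counts over the whole sheet moved in the same direction. Over all entries the split was 7 calls higher and 4 lower with TMM, 10 and 2 with DESeq2 size factors and 15 and 4 with library totals.

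Adult workers and pupae did not overlap for 6 of the 19 members, beside 37.2% of all entries. At an unadjusted p under 0.05 in edgeR there were 6 members and 45 of all 145 entries. Beyond the 2 called, these members were miR-3719-3p (1.92, adjusted p = 0.0703), miR-6038-5p (2.82, adjusted p = 0.0504), miR-3770-5p (-3.05, adjusted p = 0.0504) and miR-6048-3p (-2.43, adjusted p = 0.0806). The columns of miR-6048-3p, named after its values were seen, did overlap. miR-6038-5p stood at 1.14 to 5.47 CPM in pupae and at 28.6 (YA) and 11.2 (OA) CPM in adult workers. Its highest column was adult drones, at 30.6 CPM. Its other arm, miR-6038-3p, appeared in the stage sheet alone, with 156 counts against 1240 for the 5p arm. Of these 156 counts, 90 were from adult drones.

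The adult drone column was the highest for some members and the lowest for another. Of the 11 members reaching 50 CPM, 3 had their highest column there (miR-3719-3p, miR-3786-5p at 261 CPM and miR-6005-5p), beside 15.9% of all entries reaching that level. miR-6012-3p, which did not reach it, stood at 15.4 CPM in drones and at most at 3.04 CPM in any other stage column. miR-3715-5p was lowest in that same column, at 25.6 CPM, and the next lowest was OA. The drone group was 1 column, so it was not tested against others.

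Queen pupae were set against plain pupae of the same codes (W, R and DR). None of the 17 members tested passed in edgeR, beside 2.24% of all 134 entries. At an unadjusted p under 0.05 there were 3 members and 15 entries in all, and DESeq2 called 2 members and 5 entries in all. miR-3770-5p showed the largest shift of these. It stood at 55.4 (QW), 26.8 (QR) and 54.4 (QDR) CPM in queen pupae and at 15.3 (W), 15.6 (R) and 2.45 (DR) CPM in the plain pupae, which did not overlap. Its log2 change of 2.38 (SE 0.693) had an adjusted p of 0.151 in edgeR. miR-6057-5p had a change of 1.33 (SE 0.484, adjusted p = 0.222, edgeR) and miR-3786-3p one of -1.21 (SE 0.488, adjusted p = 0.291, edgeR). Leaving out DR or QDR gave 6 of 17 members called, 1 higher and 5 lower, and 63 of all 137 entries. These fits had fewer degrees of freedom than the 2 of the full one. The partner column left over is fitted exactly by the code term. Both runs are therefore the same comparison, of QW and QR with W and R. QW and QR held 647990 and 690134 counts, so their values are less precise than those of QDR.

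In the queen larval column miR-6057-5p stood at 141 CPM, against 23.2 to 53.8 CPM in plain larvae, and this was 1 column without a test. The highest columns of miR-3718c-5p (75.5 CPM) and miR-3770-5p (62.9 CPM) were adult queens, but these rested on 6 and 5 counts. Apart from that column, miR-3718c-5p stayed between 12.0 and 40.9 CPM through development.

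In organs, members often had a highest column far above their median column, as did other entries. A second column could be nearly as high, as for miR-6038-5p (129 CPM in mucus gland and 120 CPM in worker brain). Of the 58 entries, 20 reached 50 CPM in some column (64.3% of all 171 entries did), and 33 passed the filter for the test. For 15 of these 20 the highest column was at least 10 times the median column, beside 60.9% of all entries reaching 50 CPM. With each member sequence counted once, it was 13 of 18. The highest column was worker brain for 5, testis for 4, queen ovary for 3, drone brain for 2 and mucus gland for 2. Over all entries reaching 50 CPM these shares were 11.8, 13.6, 21.8, 9.09 and 9.09%. These member counts are of lines. Both lines of the miR-3786-3p sequence are counted under worker brain. The sequence of miR-6000-3p has a line under mucus gland and another under queen ovary. Across organ classes, 7 of the 33 members tested were called in edgeR, beside 39.3% of all entries. They were miR-3715-5p, miR-3718c-5p, miR-3783-3p, miR-3785-3p, miR-3786-5p, miR-6039-5p and miR-6040-3p. The fit had 2 residual degrees of freedom, and the calls depended on single columns. Testis, mucus gland, venom gland and each ovary were single columns and added nothing to the estimate of spread. It came only from the drone and worker columns of brain, ventriculus and rectum, so single-column organs were judged by the spread of other organs. Without drone brain, drone rectum or worker brain 0 members were called, with 2, 2 and 0 of all entries. Without worker rectum it was 1 member and 16 entries, and without worker ventriculus 20 members and 102 of 133 entries.

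**Figure D4:**
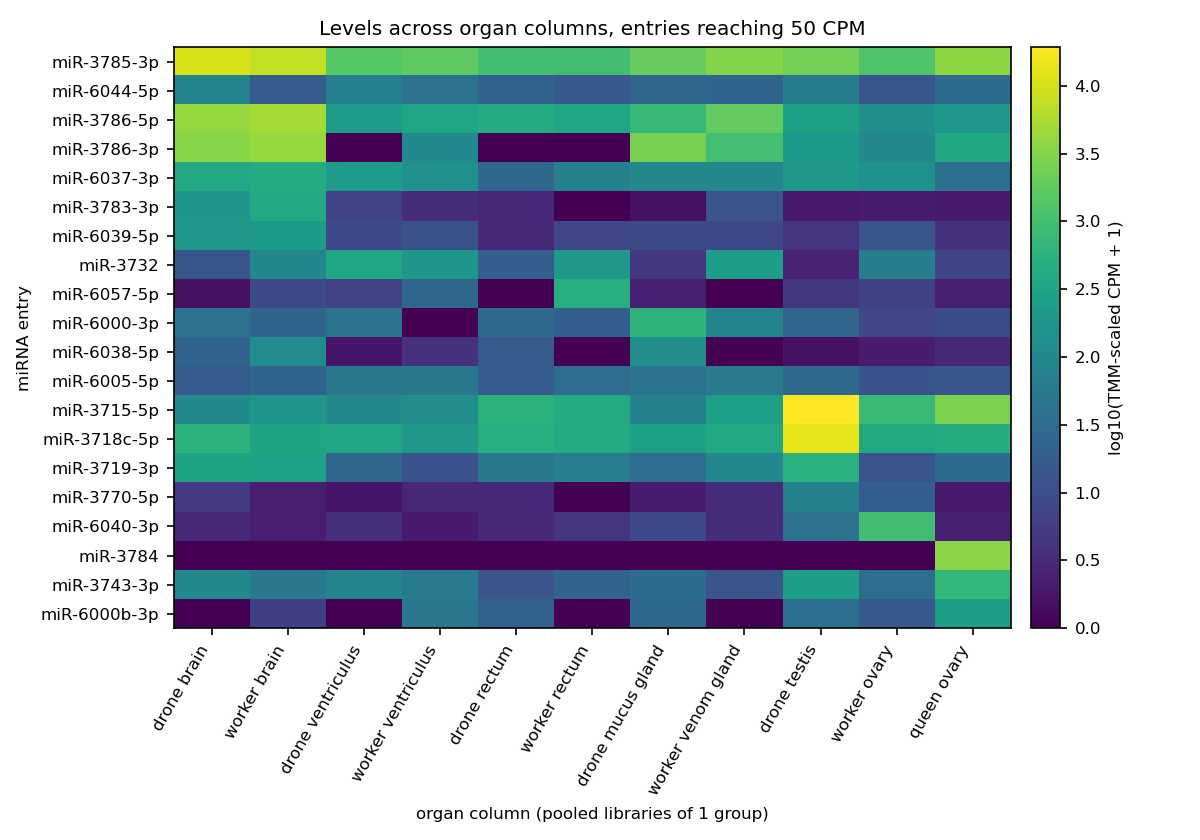
Levels of the 20 organ entries that reached 50 CPM (rows, ordered by the organ of their highest level) in the 11 organ columns, as log10 of TMM-scaled CPM plus 1. Each cell is 1 pooled column. miR-3784 is at 0 outside queen ovary (3507 CPM), miR-6040-3p is bright in worker ovary (919 CPM), and miR-3715-5p and miR-3718c-5p are brightest in testis (19341 and 13452 CPM).

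Brain against gut was the organ contrast with calls among the members. All 5 members called between brain and gut (ventriculus and rectum together) were higher in brain, beside 23% of all entries called, 13.3% higher and 9.63% lower. miR-3785-3p stood at 10533 CPM in drone brain and 7913 CPM in worker brain, against 1414 and 1750 CPM in ventriculus and 979 and 941 CPM in rectum (drone and worker). The brain columns were its highest 2 of the 11. The log2 change was 2.39 (SE 0.293, adjusted p = 0.0112, edgeR).

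miR-3783-3p was highest in brain, at 182 (drone) and 381 (worker) CPM. Venom gland followed at 12.7 CPM, the gut columns stood at 6.54, 2.54, 2.04 and 0 CPM, and the remaining columns at 0.535 to 1.21 CPM. The log2 change between brain and gut was 6.47 (SE 1.009, adjusted p = 0.021, edgeR). miR-6039-5p was also highest in brain, with 189 and 219 CPM in drone and worker brain and at most 13.3 CPM in any other column. Its gut columns stood at 8.0, 10.7, 2.04 and 7.33 CPM, and its log2 change was 4.53 (SE 0.662, adjusted p = 0.019, edgeR).

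The organ sheet listed the sequence of miR-3786-3p under both arm names, with different counts on each line. In mucus gland the lines held 23925 (3p) and 6703 (5p) counts, and in worker rectum 0 and 93. Summed over both lines, the sequence stood at 7455 and 9105 CPM in drone and worker brain, 3280 CPM in mucus gland and 2785 CPM in venom gland. The gut columns were at 234 and 431 CPM in ventriculus and 439 and 341 CPM in rectum. With lines of the same sequence merged, the log2 change between brain and gut was 4.55 (SE 0.418, adjusted p = 0.00235, edgeR). As deposited, the 5p line gave 3.27 (SE 0.359, adjusted p = 0.0091, edgeR), and the 3p line, at 0 in 3 gut columns, was not called (adjusted p = 0.0745).

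miR-3719-3p was called as well, at 318 and 296 CPM in drone and worker brain against 25.4, 11.2, 53.1 and 65.9 CPM in the gut columns (log2 change 2.72, SE 0.579, adjusted p = 0.0424, edgeR). Its highest column was however testis, at 552 CPM. miR-6037-3p had its highest columns in brain too, at 388 and 427 CPM, with 222, 140, 26.6 and 76.9 CPM in the gut columns. These did not overlap, but the change of 1.57 (SE 0.662) did not pass (adjusted p = 0.15, edgeR). In all, brain and gut did not overlap for 11 of 33 members, beside 41.5% of all entries. Each brain column and each rectum column was needed for the calls: leaving out any of these 4 left 0 calls, with adjusted p-values of 0.0635 to 0.248 for the 5 members. Over all entries those fits called 0 (drone brain), 3 (drone rectum), 0 (worker brain) and 9 (worker rectum). Leaving out worker ventriculus gave 9 members, 6 of them higher, and 55 of 133 entries. Without drone ventriculus, miR-3719-3p (adjusted p = 0.0703) and miR-6039-5p (0.0608) were lost, and miR-3719-3p also without worker ventriculus (0.0759). DESeq2 size factors moved the median log2 change of all entries by 0.30 and gave 28 calls higher and 10 lower, where TMM gave 18 and 13.

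Testis held most of its summed share in miR-3715-5p and miR-3718c-5p. miR-3715-5p stood at 19341 CPM there, followed by 2719 CPM in queen ovary and 774 CPM in worker ovary. The remaining 8 columns lay between 72.0 CPM (mucus gland) and 574 CPM (drone rectum), so the 3 gonads were its highest columns. miR-3718c-5p stood at 13452 CPM in testis and between 207 and 600 CPM in the other 10 columns, 22.4 times its next column. miR-3770-5p, at 75.5 CPM, was 4.18 times its next column, worker ovary. These ratios compare pooled columns and carry no test of testis alone.

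Within each sheet, then, miR-3715-5p was highest of the 11 organ columns in testis, a drone organ, and lowest of the 18 stage columns in adult drones. Its sequence was the same in the sheets.

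The ovaries of queens and workers were the highest columns of different members. In queen ovary miR-3784 had 10052 counts (3507 CPM) and 0 counts in the other 10 columns, at least 22140-fold higher than 3 counts summed over them. miR-3743-3p was highest in queen ovary at 688 CPM, with 238 CPM in testis and 33.7 CPM in worker ovary. The line miR-6000b-3p stood at 245 CPM in queen ovary and at 48.8 CPM or less elsewhere. In worker ovary miR-6040-3p stood at 919 CPM, from 763 counts, with 40.4 CPM in testis and 1.40 CPM in queen ovary. Each ovary was a single column, and the difference between them was not tested.

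The sequence of miR-6040-3p is that of another entry of the stage sheet without its last bases. It is printed with that entry, which the rule leaves out, because the arm names differ.
miR-6040-3p, organ sheet: uAGUACGGgcaguacuggga
miR-6040-5p, stage sheet: uAGUACGGgcaguacugggaaa

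Of the 20 entries reaching 50 CPM, mucus gland was the highest column of 2. Drone ventriculus, worker rectum and venom gland were the highest column of 1 each. The line miR-6000-3p stood at 603 CPM in mucus gland and at 84.1 CPM or less elsewhere. It has the sequence of miR-6000b-3p, and the lines divided it unevenly, with 5635 and 247 counts in mucus gland but 24 and 701 counts in queen ovary. Summed, the sequence stood at 630 CPM in mucus gland and 253 CPM in queen ovary. miR-6038-5p was highest in mucus gland (129 CPM) and worker brain (120 CPM), with 22.0 CPM in drone brain.

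miR-3732 stood at 348 CPM in drone ventriculus, 242 CPM in venom gland, 205 CPM in worker rectum and 187 CPM in worker ventriculus. Drone rectum was lower, at 18.4 CPM, worker brain stood at 91.4 CPM, and testis was lowest, at 1.61 CPM. It is named after its values were seen. miR-6057-5p stood at 509 CPM in worker rectum, from 139 counts, followed by 24.9 CPM in worker ventriculus and 0 counts in drone rectum. In the stage sheet, where the sequence under this name differs (C21U), the highest column was OA, an adult worker group.

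Drone organs were set against worker organs through brain, ventriculus and rectum. None of the 33 members was called in edgeR, beside 0% of all 135 entries. At an unadjusted p under 0.05 there were 11 entries and 0 members, and DESeq2 called 0 members. The columns of the drone and worker organs did not overlap for 3 members, beside 4.44% of all entries. They were miR-3726, with at most 9 counts in any of these columns, miR-6057-5p and the line miR-6000-3p. For miR-6057-5p the nearest columns were drone ventriculus (6.54 CPM, 9 counts) and worker brain (7.83 CPM, 6 counts). Summed over both lines, the sequence of miR-6000-3p did overlap, with drone rectum at 49.0, worker ventriculus at 48.8 and drone brain at 40.1 CPM. The largest fitted change among the 3 was that of miR-6057-5p, at -4.10 (SE 1.934, adjusted p = 0.489, edgeR).

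The other 38 organ entries never reached 50 CPM and summed to 1555 counts. Over all 58 entries, 14 had counts in every organ column, 11 in a single column and 7 had 1 count in total. Names without an arm were the rarer ones. The 33 organ entries without 3p or 5p in the name had a median total of 13 counts and 2.61% of the members' counts, and 0 of them were in the stage sheet. The 25 entries with an arm had a median total of 1157 counts. Exceptions among the 33 were miR-3784 and miR-3732, described above, and miR-3723, named after its values were seen, with 290 of its 297 counts in testis.

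**Figure D5:**
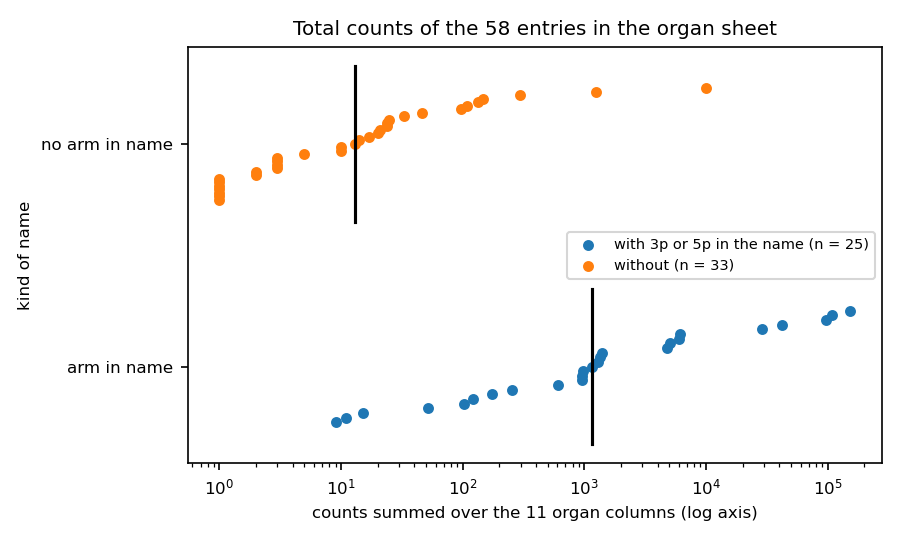
Counts summed over the 11 organ columns for each of the 58 organ entries, on a log axis, split by whether the name gives an arm. Points are entries in order of their total and the vertical lines are medians, at 1157 counts for the 25 entries with an arm and at 13 counts for the 33 without.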

How the data were processed

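Per the labels' protocols, RNA was isolated with Trizol and made into Illumina small RNA libraries. The authors deposited miRNA read counts in separate sheets for stages and organs, with 1 pooled column per group. Whether a column is a sum or a mean was not given in the sources used here, nor were counting settings or a genome build. Names of tools, per the submitters' processing notes, were bcl2fastq and kallisto. Genome positions of the miRNAs were not analysed here.

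The plan was for single libraries, and the pooled columns replaced them as units. Members and lists were chosen with earlier results of these data known. For each whole sheet, entries were kept by filterByExpr (minimum count 10), scaled by TMM and put through two-sided quasi-likelihood tests (R 4.3.3, edgeR 4.0.16). The test of queen pupae was the exception, with all of these steps run on the columns QW, QR, QDR, W, R and DR alone. An entry was called at p of 0.05 or less after Benjamini-Hochberg adjustment over all entries tested. Stage contrasts came from 1 fit of class means with 10 residual degrees of freedom. Queen pupae were fitted with a term for the stage code (2 degrees), and organs with organ class and a drone term (2 degrees). SE values are log2 changes divided by the root of the F statistic. The fit was also run on simulated data with a single dispersion for all entries, where the sign of the called changes was the only pass criterion. That run cannot give the rate of false calls in these columns. Alternatives were other scalings, no filter, DESeq2 1.42.0, merged sequences and leaving out each column.

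Named members were, in each sheet, the 6 with the highest mean, those called with at least 50 CPM on the higher side, those whose highest column was at least 10 times the median column and at least 50 CPM, and both arms of a name. Others are said to be named after their values were seen. Intervals are exact (Clopper-Pearson) at 95%, and like the floor of 3 counts they reflect counting error alone, since PCR copies are not independent molecules.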

Additional observations from a re-analysis of the deposited data

Results flagged for a closer look

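Within the larval and the pupal columns, 40 sets of values were checked for a column far from the rest of its class, and 3 stood out, where chance alone would mark about 1 in 20. The pupal column DRB stood apart for 2 members. miR-3783-3p was at 166.8 CPM in DRB and at 52.5 to 69.2 CPM in the other 3 pupal columns, a gap of 0.854 of the class range. miR-3718c-5p was at 13.8 CPM in DRB and at 32.5 to 36.1 CPM in the others, a gap of 0.84 of the range. miR-6038-3p was at 0.107 CPM in L2 and at 0 in the other larval columns, a gap of 1.0 of the range that rests on 1 count.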

How the results depend on the processing

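No paired analysis was possible because the replicate numbers belong to libraries, which the sheets pool into 1 column per group. Columns were instead matched by stage code for queen pupae, where leaving out that term also gave 0 calls, and by organ class for drones and workers. For the summed share and the counts of calls, 35 of 45 values under other settings (leaving out columns apart) stayed within 1.5 times the reported count or, for shares, 1 SD over columns. That SD was wide in organs, where the mean share was 1.15% with every line counted, 1.67% of the counts without miR-184-3p and 0.733% without miR-3715-5p. Of the 35, those from merging lines or counting every line in the stage sheet could not differ, since no sequence was repeated there. Scaling by library totals gave 9 member calls between pupae and larvae (55 over all entries) and 4 between adult workers and pupae (19). For adult workers against pupae, no filter on low counts gave 4 (14), DESeq2 gave 5 (29) and fitting the compared columns alone gave 0 (0). DESeq2 gave 2 (5) for queen pupae and 14 (96) among organ classes, and merging lines of 1 sequence gave 11 (74) among organ classes. The mean stage share was 0.743% of the counts without miR-184-3p and 0.192% without miR-3785-3p. Leaving out each column gave 9 to 13 calls among stage classes, 3 to 7 for pupae and larvae, 0 to 7 for adult workers, 0 to 6 for queen pupae, 0 to 20 among organ classes, 0 to 9 for brain against gut, and 0 for drone against worker organs throughout. The causes of these shifts were not tested. No log2 change of a called member reversed under any alternative run. QA, E and worker rectum limit what can be seen of low members, and pooling leaves no error within a group.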

Other observations

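miR-3786 had both arms in the stage sheet, and its 3p arm was the more abundant in all 18 columns. The ratio of 3p to 5p counts was 5.45 over all columns, with 98300 and 18043 counts. It was lowest in QR, at 3.13, and highest in E, at 13.8, from 207 and 15 counts. Among pupae it was 10.3 in W, 6.88 in R, 8.23 in DR and 4.33 in DRB. Among adults it was 5.19 in YA, 3.37 in OA, 4.08 in drones and 4.22 in QA. For miR-6038 the 5p arm led, with 7.95 times the counts of the 3p arm over all columns.

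The highest organ column of miR-6012-3p was queen ovary, at 35.9 CPM, followed by drone brain at 17.9 CPM, and this entry is named after its values were seen. Between brain and gut, where all 4 gut columns were at 0 counts, it was not called (adjusted p = 0.0867, edgeR). It was called with lines of the same sequence merged (adjusted p = 0.0482, edgeR), a fit that changed the scaling and the entries tested but not its own counts.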
